A study of Mus musculus with 4 samples.

Results

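The 10 genes described here, *Hk2*, *Gpi1*, *Pfkl*, *Pfkp*, *Aldoa*, *Tpi1*, *Pgk1*, *Pgam1*, *Eno1* and *Pkm*, encode enzymes of glycolysis. Their transcripts were found by gene symbol, and every transcript of them that had been tested was taken, which gave 18 of 34200 transcripts. Poly(A)-selected RNA was sequenced from NIH/3T3 cells, an immortalised line of mouse embryonic fibroblasts, 48 h after transfection with siRNA at a final concentration of 10 nM. Knockdown (KD) cells, with 2 libraries, received a mixture of 2 siRNAs against *Setd2*, the gene of the histone methyltransferase that deposits H3K36me3 along transcribed genes. The control cells, with 2 libraries that the labels call wild type (WT), received the Scrambled siRNA, so that transfection and culture were shared by both groups. All 4 libraries came from this single cell line, and the description of the series speaks of independent transfections without tying a library to one of them.

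Glycolysis converts glucose to pyruvate in the cytosol. Its first enzymes spend ATP to phosphorylate the sugar and to split it into triose phosphates, and the later enzymes recover ATP and NADH while these are turned into pyruvate. Hexokinase, phosphofructokinase and pyruvate kinase catalyse the steps that are in practice irreversible, whereas the other reactions run near equilibrium. Proliferating fibroblasts in culture use the pathway heavily, and its intermediates also feed the pentose phosphate pathway and serine synthesis.

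A value for each single library was not used here, because the deposited table holds summaries over the 4 libraries. A level is a group mean of normalised estimated counts. It was computed from the deposited mean over the 4 libraries and the deposited effect, and back-transformed from the natural log scale. The log2(fold change) is KD over WT with its standard error (SE). A transcript was called when the q-value of the Sleuth likelihood ratio test over all 34200 transcripts was under 0.05, and no q-value in the table was lower than 0.0103. The siRNA target was checked first. *Setd2* had a level of 3680 in WT and 923 in KD, a log2(fold change) of -1.99 (SE 0.09, q = 0.0103), and its groups cannot overlap. The depth of the single libraries is unknown. Since whole cultures were lysed, a larger share of cells with high expression and more RNA per cell cannot be told apart.

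Of the 18 glycolytic transcripts, 12 were called, 11 of them higher and 1 lower in KD. Over all 34200 transcripts 12.5% were called, with 7.26% higher and 5.21% lower. Abundant transcripts were called more often, and of the 2086 whose mean over the libraries reached 5000 normalised estimated counts 27.4% were called higher and 9.16% lower. Of the 18, 10 were that abundant, of which 9 were called higher. Every gene had at least 1 called transcript, which was the most abundant of the gene in each case, and 9 of these 10 main transcripts were higher in KD. Their median log2(fold change) was 0.51, against -0.011 over all transcripts and 0.17 over those whose mean reached 5000. The glycolytic transcripts together made up 0.376% of all normalised estimated counts in WT and 0.566% in KD.

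The deposited variances bound how far apart the 2 libraries of a group can lie. By this bound KD and WT libraries cannot overlap for 15 of the 18 transcripts, including all 12 that were called. The same holds for 54.8% of all transcripts, so that separation of groups of 2 was common. Among the 10 main transcripts the standard deviation between libraries of a group ranged from 0.04 to 0.13 on the log2 scale. *Hk2*, the main transcript with the smallest rise, still differed between the groups by 0.33.

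**Figure D1:**
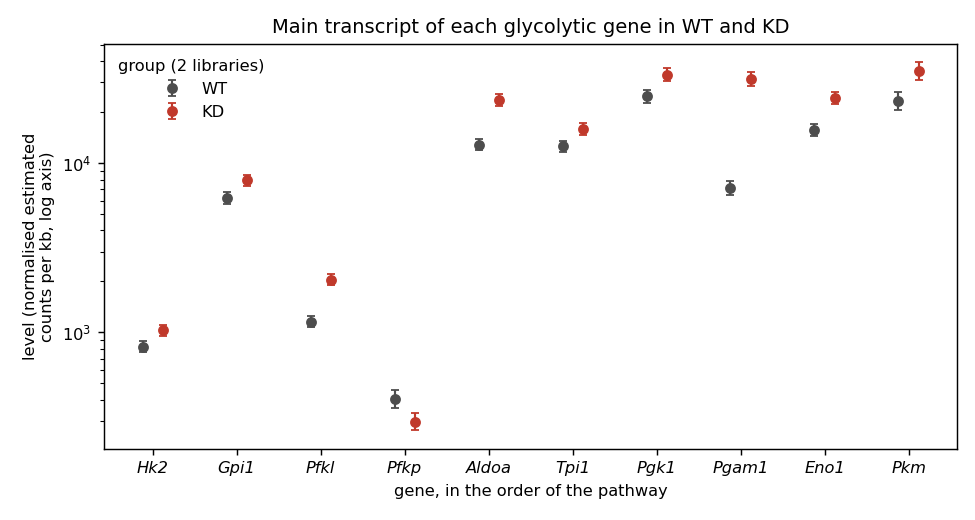
Level of the most abundant transcript of each gene in WT (grey) and KD (red), in normalised estimated counts per kb of transcript on a log axis, with genes in pathway order. Points are group means of 2 libraries and bars their 95% intervals, and *Pgam1* moves from 7131 to 31351 while *Pfkp* is the 1 gene with the lower point in KD.

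Scaling bears on every direction given below. *Actb*, a common reference gene, was itself higher in KD, with a log2(fold change) of 0.46 (SE 0.11, q = 0.0310) and levels of 82423 in WT and 113066 in KD. Division by *Actb* therefore lowers each log2(fold change) by 0.46, whereas centring on the median of those whose mean reached 100 lowers it by 0.048. After division by *Actb* the main transcripts of *Hk2*, *Gpi1*, *Tpi1* and *Pgk1* turned to values between -0.13 and -0.026, and none of these was called. Those of *Pgam1*, *Aldoa*, *Pfkl* and *Pfkp* kept their direction and were called under each scaling tried. *Eno1* and *Pkm* kept their direction but were no longer called after division by *Actb*.

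The first enzymes of the pathway were higher in KD by small amounts, which did not outlast division by *Actb*. *Hk2* encodes hexokinase 2, which traps glucose in the cell as glucose 6-phosphate. Its main transcript had a level of 4528 (95% interval 4198 to 4884) in WT and 5679 (5265 to 6126) in KD, and the higher value of KD (log2(fold change) 0.33, SE 0.08, q = 0.0285) became -0.13 after division by *Actb*. The other *Hk2* transcript had a mean of 5.38 counts, overlapped between the groups and was not called (q = 0.544). *Gpi1*, for glucose 6-phosphate isomerase, went from 17940 in WT to 22892 in KD, a log2(fold change) of 0.35 (SE 0.08, q = 0.0279) that became -0.10 after division by *Actb*. With limma's moderated test the calls of *Hk2* (adjusted p = 0.0584) and *Gpi1* (adjusted p = 0.0501) were lost. Neither group of either main transcript overlapped the other.

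The phosphofructokinase genes moved in opposite directions. Phosphofructokinase commits the sugar to glycolysis and is assembled from liver, platelet and muscle type subunits, encoded by *Pfkl*, *Pfkp* and *Pfkm*. *Pfkl* (chr10:77986947-78009807, minus strand, 22 exons, GRCm38) rose from 4299 (3989 to 4634) to 7655 (7102 to 8251), with a log2(fold change) of 0.83 (SE 0.08, q = 0.0103). The more abundant transcript of *Pfkp* (chr13:6581182-6648725, minus strand, 22 exons) fell from 1084 (961 to 1223) to 796 (706 to 898), with a log2(fold change) of -0.45 (SE 0.13, q = 0.0374). This was the 1 glycolytic transcript called lower, and limma's moderated test did not call it (adjusted p = 0.0545). The other *Pfkp* transcript went from 554 to 504 and was not called (log2(fold change) -0.14, SE 0.16, q = 0.218), and whether its groups overlap could not be determined. After division by *Actb* it was called lower (-0.59, adjusted p of the Wald test 0.0115).

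*Pfkm*, which was not among the 10 genes, had a main transcript at 3767 in WT and 4440 in KD (log2(fold change) 0.24, SE 0.08, q = 0.0566), and this value turned negative after division by *Actb*. The effect of *Pfkl* exceeded that of *Pfkp* by 1.28 on the log2 scale (95% interval 0.99 to 1.57, errors taken as independent). It exceeded that of *Pfkm* by 0.60 (0.37 to 0.82). Per kb of transcript, *Pfkl* made up 38.3% of the summed phosphofructokinase level in WT and 50.9% in KD. The share of *Pfkp* was 17.9% in WT and 10.4% in KD, and that of *Pfkm* was 43.9% and 38.8%. Per kb, the highest RNA level of the 3 genes was thus that of *Pfkm* in WT and that of *Pfkl* in KD. On counts *Pfkl* had the largest share in both groups, 44.1% in WT and 56.9% in KD. A factor shared by all transcripts, as in division by *Actb*, cancels in the differences and shares above. Centring on GC content is specific to each transcript and gave 0.65 for *Pfkl* and -0.52 for *Pfkp*.

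*Aldoa*, for the aldolase that splits fructose 1,6-bisphosphate into triose phosphates, had 4 tested transcripts. The main transcript carried 91.6% of the mean level of its gene and rose from 19458 (17986 to 21051) to 35619 (32925 to 38534), with a log2(fold change) of 0.87 (SE 0.08, q = 0.0103). A less abundant transcript, ENSMUST00000087566, rose to nearly the same degree, from 846 to 1595 (log2(fold change) 0.91, SE 0.17, q = 0.0230), but its call was lost after division by *Actb* (0.46, adjusted p of the Wald test 0.0724). The difference between the effects of these transcripts was 0.042 with a 95% interval from -0.33 to 0.41, errors taken as independent. Little of the sequence of either transcript is absent from all other annotated transcripts, so their separate levels rest largely on the statistical assignment of shared reads. Whether each rose by itself to a like degree was therefore not resolved. The other two went from 1056 to 1524 (0.53, SE 0.24, q = 0.126) and from 230 to 297 (0.37, SE 0.21, q = 0.196) and were not called. The last of these lies further upstream (chr7:126800790-126809108, minus strand) and is listed under another gene identifier of the same symbol. *Tpi1*, for triose phosphate isomerase, went from 20226 to 25625, a log2(fold change) of 0.34 (SE 0.08, q = 0.0264) that became -0.11 after division by *Actb*. Its short transcript overlapped between the groups, with levels of 419 and 445 (q = 0.698).

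In the later steps, phosphoglycerate kinase 1, encoded by the X-linked *Pgk1*, makes the first ATP of the pathway. *Pgk1* went from 45242 (41434 to 49399) in WT to 60948 (55818 to 66549) in KD, a log2(fold change) of 0.43 (SE 0.09, q = 0.0274) that became -0.026 after division by *Actb*.

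*Pgam1* showed the largest called rise of the 18 transcripts. It encodes phosphoglycerate mutase 1, which moves the phosphate of 3-phosphoglycerate to the neighbouring carbon. The transcript (chr19:41911923-41918660, plus strand, 4 exons) rose from 12657 (11489 to 13945) in WT to 55648 (50510 to 61308) in KD. The log2(fold change) was 2.14 (SE 0.10, 95% interval 1.94 to 2.33, q = 0.0103), or 4.40-fold (3.83 to 5.04). The 2 libraries of a group can have differed by at most 0.20 on the log2 scale. Its effect exceeded those of the other 9 main transcripts by 1.26 (against *Aldoa*, 1.01 to 1.52) to 2.58 (against *Pfkp*, 2.27 to 2.90). No other transcript whose mean reached 5000 was called with a larger rise, and 3 were where the mean reached 100. Per kb, and summed over the transcripts of a gene, *Pgam1* stood at 7131 in WT, well under *Pgk1* (24790) and *Tpi1* (13109). In KD it stood at 31351, near *Pgk1* (33396) and above *Tpi1* (16501) and *Eno1* (24755).

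*Eno1*, for the enolase that forms phosphoenolpyruvate, rose in both tested transcripts. The main transcript went from 31843 (29289 to 34620) to 49325 (45368 to 53626), with a log2(fold change) of 0.63 (SE 0.09, q = 0.0127). The other went from 535 to 801 (0.58, SE 0.14, q = 0.0299), and neither passed the test after division by *Actb*, with values of 0.18 and 0.13.

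**Figure D2:**
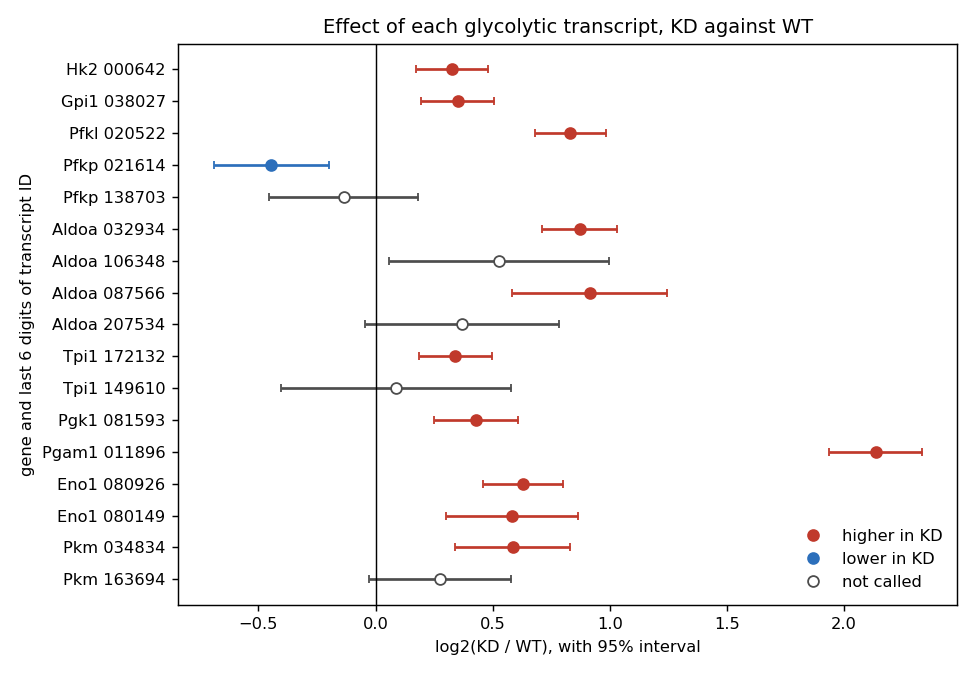
log2(KD / WT) of the 17 glycolytic transcripts whose mean reached 100 normalised estimated counts, with 95% intervals from the deposited SE. Red points were called higher, the blue point lower and open points not called. Each red interval lies above 0, *Pgam1* stands at 2.14 and the intervals of the other red points lie below 1.25, while division by *Actb* would shift all points to the left by 0.46 and put *Hk2*, *Gpi1*, *Tpi1* and *Pgk1* below 0.

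Pyruvate kinase ends the pathway and makes its last ATP. *Pkm* transcripts carry 1 of 2 mutually exclusive exons, and the choice sets whether the M1 form of differentiated tissue such as muscle or the M2 form of proliferating cells is made. Each tested *Pkm* transcript carries 1 of these exons, both of 167 coding bases, and the exons were printed because the reads that distinguish the forms come in part from them. Capitals mark the 64 positions at which they differ, the other 103 (61.7%) being identical. Sequences are from the GENCODE M21 transcripts (GRCm38), at chr9:59675029-59675195 for M1 and chr9:59675568-59675734 for M2, both on the plus strand.
M1 exon: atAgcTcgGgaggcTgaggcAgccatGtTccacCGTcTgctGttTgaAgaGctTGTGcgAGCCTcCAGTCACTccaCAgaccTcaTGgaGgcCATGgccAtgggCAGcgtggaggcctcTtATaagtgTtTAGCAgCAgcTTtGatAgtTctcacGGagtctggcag
M2 exon: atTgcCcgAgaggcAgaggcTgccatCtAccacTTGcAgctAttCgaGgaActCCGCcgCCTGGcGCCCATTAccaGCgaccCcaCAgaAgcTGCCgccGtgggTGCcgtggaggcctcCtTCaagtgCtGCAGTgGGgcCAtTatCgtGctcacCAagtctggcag
The transcripts also differ at their ends, the M2 transcript being longer by 205 bases in the first exon and by 186 in the last.

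The transcript with the M2 exon rose from 56639 (50230 to 63867) in WT to 84960 (75345 to 95801) in KD, with a log2(fold change) of 0.58 (SE 0.13, q = 0.0299). The transcript with the M1 exon had levels of 23942 (20635 to 27779) and 28940 (24942 to 33578) and was not called (0.27, SE 0.15, q = 0.192), although its groups cannot overlap. After division by *Actb* these effects were 0.13 and -0.18, and neither was called. Per kb, the M2 transcript made up 66.5% of the *Pkm* level in WT and 71.1% in KD. The difference between the effects was 0.31, with a 95% interval from -0.078 to 0.70 that includes 0, so that a change in the ratio of the forms was not resolved. Only 0.945% of the 31-base words of the M1 transcript occur in no other annotated transcript, against 17.2% for the M2 transcript, so that the levels rest largely on the statistical assignment of shared reads.

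Of the 4 genes known to control this exon choice, *Ptbp1*, *Hnrnpa1*, *Hnrnpa2b1* and *Srsf3*, 12 transcripts were tested and 1 was called. It was a *Ptbp1* transcript, of the polypyrimidine tract binding protein that represses the M1 exon, which rose from 5652 to 9781 (0.79, SE 0.10, q = 0.0115). The more abundant *Ptbp1* transcript, at 12246 in WT and 14425 in KD, was not called (0.24, SE 0.09, q = 0.0934). After division by *Actb* 0 of the 12 were called higher and 7 lower, against 404 higher and 8792 lower of all 34200 transcripts.

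**Figure D3:**
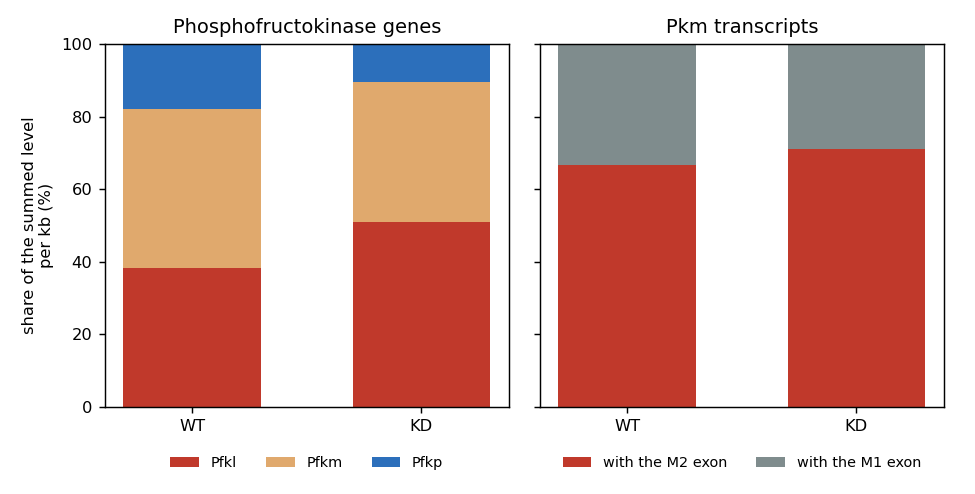
Shares of the summed level per kb, in percent, in WT and KD, of the 3 phosphofructokinase genes (left) and of the 2 tested *Pkm* transcripts (right). *Pfkl* takes 38.3% in WT and 50.9% in KD, and the *Pkm* transcript with the M2 exon 66.5% and 71.1%, a difference whose interval includes no change.

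Several members have near-identical copies elsewhere in the genome, and the division of reads between them is uncertain. For *Pgam1*, 42.1% of the 31-base words occur in the processed pseudogene *Pgam1-ps2*, which had levels of 11.3 in WT and 2028 in KD with an SE of 4.56 on the log2 scale and was not called (q = 0.223). With *Pgam1-ps2* added, the *Pgam1* sum was 12669 in WT and 57676 in KD, a log2 ratio of 2.19. For *Eno1*, 75.6% of the words of the main transcript occur in *Eno1b*, a copy whose tested transcript is annotated with 2 exons. *Eno1b* itself was called higher, from 13979 to 24495 (0.81, SE 0.08, q = 0.0103), and its effect exceeded that of *Eno1* by 0.18 (-0.053 to 0.41). With *Eno1b* and the pseudogenes *Gm4735* and *Gm5855* added, the log2 ratio of the *Eno1* sum was 0.68 in place of 0.63. *Pgk1* shares 68.2% of its words with *Pgk1-rs7*, and the words found in no other gene were 31.7% for *Pgk1*, 49.1% for the M2 transcript of *Pkm* and 65.0% for *Aldoa*. *Hk2*, *Pfkl* and *Pfkp* were nearly free of sharing with other genes, with at least 99.2% of words of each tested transcript found in no other gene. Within *Pfkp*, however, only 1.02% of the words of the more abundant transcript and 2.16% of those of the other occur in no other annotated transcript. For *Aldoa*, the words in no other annotated transcript were 5.74% for the main transcript and 1.71% for ENSMUST00000087566. They were 6.08% and 4.22% for the remaining *Aldoa* transcripts. The separate levels of the *Pfkp* and of the *Aldoa* transcripts thus rest largely on the statistical assignment of shared reads. The *Tpi1* copy *Tpi-rs11* had a mean of 5.26 counts and was not called (q = 0.826).

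At the level of genes, the deposited q-value was under 0.05 for 10 of the 11 gene identifiers, from 0.00011 for *Aldoa* to 0.0378 for *Tpi1*, and the identifier that missed it was the additional one named *Aldoa* (q = 0.168). Of all genes 24% passed. The log2 ratio of the summed level was -0.33 for *Pfkp*, against -0.45 for its main transcript alone.

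Counts for lists of related genes are given beside those above, and their differences from the 10 genes were not tested. Among the other glycolytic enzymes and paralogs, 22 transcripts of 11 genes were tested and 2 were called, both higher, with a median log2(fold change) of 0.25. Besides *Eno1b* this was a transcript of *Gapdh*, the dehydrogenase that makes NADH in the pathway, which rose from 9527 to 26580 (1.48, SE 0.11, q = 0.0103). The other *Gapdh* transcript went from 8059 to 9137 (0.18, SE 0.32, q = 1). Just 7.88% of the words of the called transcript occur in no other gene, and 0% in no other annotated transcript. The division between the *Gapdh* transcripts thus rests on the statistical assignment of shared reads. The fructose 2,6-bisphosphate enzymes set the activator of phosphofructokinase. None of their 14 transcripts was called by the likelihood ratio test or by the Wald test. With limma's moderated test 1 was called higher, a *Pfkfb2* transcript with a mean of 2.40 counts. The median over the 14 was -0.060.

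Glucose uptake and lactate release gave 3 transcripts called higher and 1 lower of 19. *Slc2a1*, the main glucose transporter of fibroblasts, rose from 9453 to 16359 (0.79, SE 0.08, q = 0.0103). *Ldha*, for lactate dehydrogenase A, rose from 30011 to 42200 (0.49, SE 0.08, q = 0.0156), and *Bsg*, for the chaperone of lactate transporters, from 24690 to 35620 (0.53, SE 0.08, q = 0.0168). The transporter gene *Slc2a6* fell from 429 to 246 (-0.80, SE 0.20, q = 0.0405).

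In the pentose phosphate pathway 4 of 12 transcripts were called, all higher, from *Taldo1* at 0.65 to *Pgd* at 0.31, the latter turning to -0.15 after division by *Actb*. In serine synthesis from 3-phosphoglycerate 4 of 8 were called, all higher, with the largest value of 0.82 for a transcript of *Shmt2*. The tricarboxylic acid cycle had 5 higher and 2 lower of 24, between *Cs*, for citrate synthase, at 0.63 and *Fh1*, for fumarase, at -0.48. Some of the 5 higher, among them *Idh3b*, turned slightly negative after division by *Actb*. Entry of pyruvate into mitochondria gave 1 higher, *Pdhb* at 0.28 (-0.18 after division by *Actb*), and 1 lower, *Pdk4*, for a kinase that inhibits pyruvate dehydrogenase, at -0.81, of 25. In gluconeogenesis, glycerol and glycogen metabolism 1 of 22 was higher (*Gys1*, 0.52) and 2 were lower, with *Gpd1l* at -1.20. The counts of calls depend on the scaling. Divided by *Actb*, with the Wald test, they were 2 higher and 4 lower for the other glycolytic enzymes, 0 and 2 for the fructose 2,6-bisphosphate enzymes, and 1 and 3 for glucose uptake and lactate. They were 0 higher and 1 lower for the pentose phosphate pathway, 1 and 1 for serine synthesis, and 0 and 6 for the tricarboxylic acid cycle. For pyruvate entry they were 0 and 10, and for gluconeogenesis, glycerol and glycogen 0 and 9. Over all 34200 transcripts the same setting called 404 higher and 8792 lower, so that calls of lower were common in general.

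Many glycolytic genes are also targets of hypoxia-inducible factors, and 45 transcripts of 21 genes of that response outside glycolysis were tested. Of these 7 were called higher, 4 of them of *Vegfa* with values up to 1.45, and 2 lower, with *Ero1l* at -0.87. Divided by *Actb*, 3 were called higher and 14 lower, against 404 and 8792 of all 34200 transcripts. The median of the list was 0.020, against 0.40 for the 18 glycolytic transcripts and -0.011 for all transcripts. The list holds regulators of the response beside its targets, and *Slc2a1* and *Ldha* were counted under glucose uptake and lactate. Its transcripts were also less abundant, the median of their means being 1116 normalised estimated counts against 5404 for the glycolytic ones. Whether the cells responded through hypoxia-inducible factors was not tested.

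**Figure D4:**
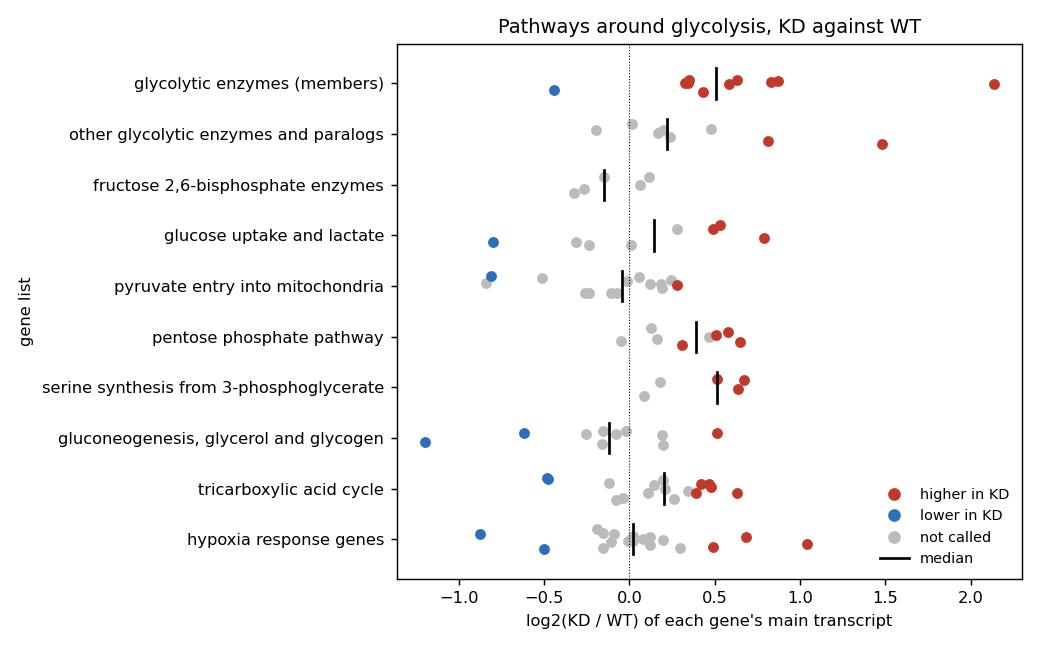
log2(KD / WT) of the most abundant transcript of each gene where its mean reached 100 normalised estimated counts, for the 10 glycolytic genes (top) and the lists around them. Red points were called higher, blue lower and grey not called, and black bars are medians over the points shown. The top row has 9 red points and 1 blue, whereas most points of the hypoxia list lie near 0, and division by *Actb* would shift all points to the left by 0.46.

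Fibroblast identity was checked with marker genes. All 10 fibroblast markers were detected, with main transcripts at means of 3023 to 273156, and 9 of their 23 transcripts were called, 6 higher and 3 lower. The collagen genes *Col1a1*, *Col1a2* and *Col3a1* were the 3 lower (-0.68, -0.68 and -0.92), whereas a less abundant *Fn1* transcript reached 1.25. The main *Fn1* transcript rose by 0.69, and the *Fn1* transcripts that were not called had values from -2.30 to -0.054. After division by *Actb* 0 of the 23 fibroblast transcripts were called higher and 8 lower, against 404 and 8792 of all 34200 transcripts. Of 12 markers of other cell types 8 had tested transcripts, none of which was called (0 higher and 1 lower after division by *Actb*), and their main transcripts had means of 3.03 to 298.

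To place the coding changes beside the sequence at the gene starts, promoter windows of 300 bases, 250 before and 50 after the start, were taken from RefSeq (GRCm38.p6) for all 10 genes. Where a gene had several windows, the one nearest the start of its main transcript was used. The start of the window lay 244 bases from that of the main transcript for *Eno1*, 208 for *Pkm* and 138 for *Tpi1*. It lay 52 bases away for *Pgam1* and 46 for *Pfkp*, and coincided for the other genes. The *Eno1* window ended before its main transcript began, and the windows of *Pkm* and *Tpi1* lay mostly within the span of theirs. Matches in these windows, or their absence, need not describe the promoters of those transcripts. The letters ACGTG and GCGTG, the core that hypoxia-inducible factors bind, were searched on both strands. At least 1 of them occurred in 7 of the 10 windows and in 43.8% of 32851 windows of all genes. ACGTG occurred in 4 of 10 (19.6% of all windows) and GCGTG in 4 of 10 (32.4%). CACGTG, which contains ACGTG on both strands, occurred in 0 of 10 (7.15%), and the GC box letters GGGCGG in 9 of 10 (35.7%). Both core motifs were present at *Pgam1*, GCGTG alone at *Pfkl*, *Pfkp* and *Eno1*, ACGTG alone at *Hk2*, *Aldoa* and *Pgk1*, and neither at *Gpi1*, *Tpi1* and *Pkm*. The bases upstream of the start are given for *Pgam1*, which had the largest rise, and for *Pfkl* and *Pfkp*, which moved in opposite directions, with ACGTG and GCGTG on either strand in capitals. They lie at chr19:41911621-41911870 (plus strand), chr10:78009808-78010057 (minus strand) and chr13:6648778-6649021 (minus strand).
Pgam1: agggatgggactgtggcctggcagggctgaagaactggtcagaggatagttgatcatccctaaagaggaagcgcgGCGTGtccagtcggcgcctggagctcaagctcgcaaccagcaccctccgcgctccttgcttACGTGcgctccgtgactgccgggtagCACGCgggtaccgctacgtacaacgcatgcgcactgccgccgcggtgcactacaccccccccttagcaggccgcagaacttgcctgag
Pfkl: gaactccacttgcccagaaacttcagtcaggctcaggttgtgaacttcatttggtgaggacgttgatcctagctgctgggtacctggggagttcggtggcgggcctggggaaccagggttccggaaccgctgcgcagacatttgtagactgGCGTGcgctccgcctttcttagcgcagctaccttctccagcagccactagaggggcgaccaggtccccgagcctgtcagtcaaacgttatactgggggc
Pfkp: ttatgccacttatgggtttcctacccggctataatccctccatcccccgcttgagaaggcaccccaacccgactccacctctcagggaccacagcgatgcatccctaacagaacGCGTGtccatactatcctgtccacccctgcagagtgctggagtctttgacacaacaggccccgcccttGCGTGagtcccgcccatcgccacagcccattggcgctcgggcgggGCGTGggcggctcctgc
The upstream stretch of *Pgam1* held 3 such matches, that of *Pfkl* 1 and that of *Pfkp* 3. A match of letters is a description and not a bound site.

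**Figure D5:**
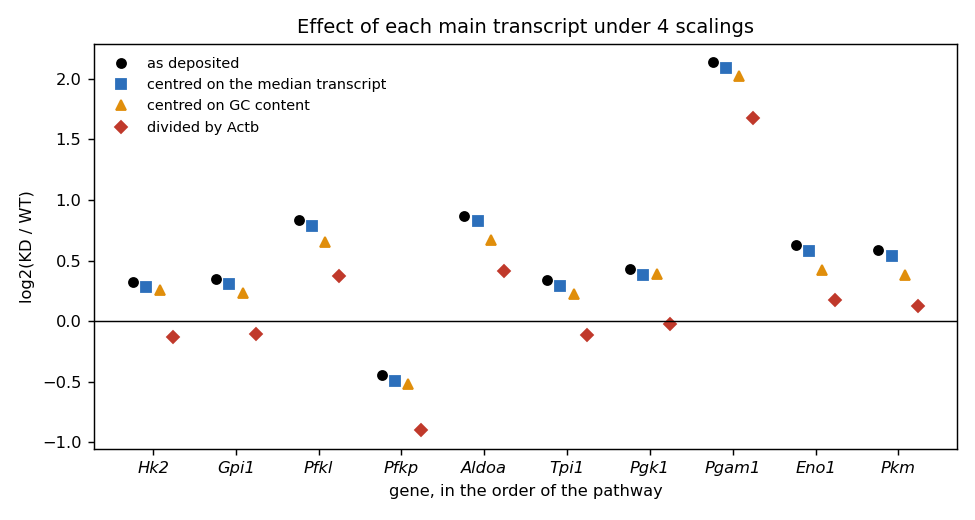
log2(KD / WT) of the main transcript of each gene as deposited (black), centred on the median transcript (blue), centred on transcripts of like GC content (orange) and divided by *Actb* (red). *Pgam1* remains between 1.68 and 2.14 and *Pfkp* below 0, whereas *Hk2*, *Gpi1*, *Tpi1* and *Pgk1* lie above 0 under the first 3 scalings and below 0 after division by *Actb*.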

How the data were processed

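RNA-seq libraries of NIH/3T3 cells, 2 KD and 2 WT, were analysed, with groups taken from the *Setd2* field of the labels. Per the study's methods, adapters were trimmed with BBDuk, transcript abundances estimated with Kallisto and groups compared with Sleuth. No covariate is named, and the deposited variances have 2 residual degrees of freedom, those of a fit of the 2 groups alone. The submitters' processing notes also name bcl2fastq 2.17, HISAT2 and GRCm38. The index is not given in the sources used here. The deposited effects, SEs, means and variances are on the natural log scale of estimated counts that the authors normalised per library and increased by 0.5. The deposited p-values and q-values are the authors' Sleuth likelihood ratio and Wald results over 34200 transcripts, and the likelihood ratio calls were used. No single-library values were used, so levels, intervals and bounds on overlap were computed from the summaries, and p-values measure only the spread between these libraries.

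A residual sum of squares with 2 degrees of freedom was obtained for each transcript from the deposited variances. If the effect exceeds its square root, 2 libraries of KD and 2 of WT cannot overlap. 95% intervals used the normal approximation and not a t distribution with 2 degrees of freedom, which would widen them. Alternatives used the Wald q-value, limma 3.58.1 (R 4.3.3), a mean of at least 100 counts, and centring on the median, on 50 classes of GC content or on *Actb*. The Wald, limma and GC steps and the overlap bound were run on simulated normal data with known variances. That run checks the code and not the behaviour of the tests on these libraries. Transcript lengths, GC content and 31-base words came from GENCODE M21, which matched 98.6% of transcripts with the same version, and 8 transcripts had no match. All transcripts of the members, the called transcripts with the largest rise and fall of each list, and copies of members are named, and *Gapdh*, *Ldha*, *Slc2a1* and *Pfkm* whatever their call. In the lists of other glycolytic enzymes, fructose 2,6-bisphosphate enzymes, glucose uptake and lactate, and regulators of *Pkm*, every called gene is named. *Col1a1*, *Col1a2*, *Idh3b* and *Pgd* fall outside this rule and were chosen after their values were seen. The members and lists were chosen with earlier results of these data known. The share called among transcripts with a mean of at least 5000 was added after seeing the data.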

Additional observations from a re-analysis of the deposited data

How the results depend on the processing

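No paired analysis was possible because the deposited tables hold no values of single libraries, and for the same reason leaving out a replicate and the fit with a replicate block were not run. The likelihood ratio test called 4266 transcripts, or 6440 with a mean of at least 100 required, and limma called 3312. The scalings were tested with the Wald test, which called 6233 transcripts as deposited and 9196 after division by *Actb*, of which 404 were higher. Of the 18 glycolytic transcripts, 12 were called (11 higher, 1 lower). The Wald test, the limit on the mean, median centring and GC centring gave the same 12 calls, whereas limma's moderated test gave 9 higher and 0 lower, with adjusted p of 0.0501 for *Gpi1*, 0.0584 for *Hk2* and 0.0545 for *Pfkp*. Division by *Actb* gave 5 calls, 3 higher and 2 lower, of which 4 were among the 12 and the other, of the less abundant *Pfkp* transcript (-0.59), was gained. The median log2(fold change) of the 18, 0.40, was 0.29 after GC centring and -0.056 after division by *Actb*. The effects that changed sign with *Actb* were *Hk2* (-0.13), *Gpi1* (-0.10), *Pgk1* (-0.026), the *Tpi1* transcripts (-0.11 and -0.37), the M1 transcript of *Pkm* (-0.18) and the least abundant *Aldoa* transcript (-0.086). The short *Tpi1* transcript also changed sign with GC centring (-0.027). *Actb* scaling subtracts 0.46 from each effect by construction, and which scaling is closer to the cells' RNA was not tested. The tables give no depth of single libraries, which limits what can be said of transcripts with few counts, such as the minor *Hk2* transcript.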
